A study of Mus musculus with 6 samples.

Results

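The genes described here encode the machinery of DNA replication and of S phase, from origin licensing to nucleotide supply and checkpoint control. The list holds 51 genes, chosen by name, and 50 of them were measured, among 18193 measured genes in all. The remaining gene, Chaf1a, had no probe set annotated to it alone and was not analysed here. Each gene was read through its brightest probe set over all 6 arrays. Because the later arrays enter that mean, a probe set that fell far could be passed over for one that fell less, for example for Brca1, E2f2, Mcm2 and Mcm3. The probe sets read for Ccne1, Fen1, Mcm3, Mcm5 and Rrm2 are of the array maker's class x_at, which may bind transcripts of other genes. Those read for Mcm2, Mcm7, Gins2 and Chek1 are of its class s_at, whose probes may also be shared with transcripts of other genes.

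Replication starts when the origin recognition complex, Cdc6 and Cdt1 load the ring of Mcm proteins onto DNA, a step that geminin blocks outside G1. Cdc45 and the GINS complex then turn the ring into an active helicase, and primase and the replicative polymerases copy the strands with the sliding clamp Pcna. Many of these genes are targets of E2F transcription factors. In the developing cortex they are active in progenitors, and neurons have left the cycle.

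The study profiled corticothalamic projection neurons, the deep-layer cortical neurons whose axons reach the thalamus, from wild-type C57BL/6 mice at 3 stages. For the stage named E18, fluorescent beads were injected into the thalamus at E17.5 and cortex was taken at E18.5. For P3 the days were P1 and P3, and for P6 they were P4 and P6, and cells that had taken up green beads were sorted by fluorescence. Labelling thus ran for 1 day before E18 samples and for 2 days before P3 and P6 samples, which cannot be told apart from stage. Uptake of beads selected the cells, with no genetic label, and the labels give no number of pooled animals and no control group. Each stage had 2 arrays, and nothing in the labels says that the pair stems from different animals or sorts, so a p-value covers the spread between the arrays at hand and no more.

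Values are log2 expression levels, as deposited, and a change is a difference between stage means in log2 units. It has the standard error (SE) of a limma fit to all genes, which takes the spread as equal over the 3 stages. Differences between replicates had a standard deviation of 0.13 log2 units at E18, 0.57 at P3 and 0.46 at P6. An SE for P6 minus P3 may thus be too small. The E18 pair also lowered the shared spread that the comparisons with E18 use. A gene was called changed at a Benjamini-Hochberg adjusted p below 0.05. The E18 arrays were almost alike, with a correlation of 0.998 across probe sets and 0 probe sets more than 2-fold apart, against 3664 at P3 and 1710 at P6. Hybridization controls read 9.25 to 9.59 at E18, 11.59 and 11.72 at P3, 13.01 on P6 replicate 1 and 9.85 on P6 replicate 2. Probe sets for 18S ribosomal RNA read 14.22 on P3 replicate 2 and 13.92 on P6 replicate 1, and 11.32 to 11.83 on the other arrays. For Actb, the 3' probe set exceeded the 5' one by 0.56 and 0.58 log2 units on the E18 arrays, 1.19 and 1.76 on P3 replicates 1 and 2, and 1.06 and 0.82 on the P6 arrays. For Gapdh the excess was 1.48 and 1.44 on the E18 arrays, 2.55 and 1.68 on P3 replicates 1 and 2, and 2.08 and 1.79 on the P6 arrays, so the P3 replicates ranked the other way. The part of these array differences in the results was not tested beyond the covariate fits described with the processing alternatives. All 8 markers of corticothalamic and layer 6 neurons rose after E18, where 15.4% of all genes rose at P3 and 11.6% at P6. Among them was Ntsr1 (7.32 and 7.41 at E18, 10.24 and 9.39 at P3, 10.89 and 10.27 at P6). All 8 lay above the lower quartile of every array, which is a low bar. Syt6 read 6.12 and 6.13 at E18, below the median of 6.41 of both E18 arrays.

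Replication genes were lower at P3 and P6 than at E18 across nearly every step of the process. Of the 50 members, 42 fell at P3 against E18, where 20.0% of all genes fell, and 0 rose, where 15.4% of all genes rose. At P6, 44 members fell against E18, where 13.3% of all genes fell, and 0 rose, where 11.6% did. The median change of the members was -2.46 log2 units at P3 and -2.25 at P6, beside 0.09 and 0.13 for all genes. Both comparisons use the same E18 arrays, and 41 members fell in both. The fall exceeded 8-fold for 14 members at P3 and 9 at P6, 4-fold for 32 and 28, and 2-fold for 41 and 40. Medians by role at P3 ran from -3.02 for licensing to -0.80 for the measured gene of chromatin assembly. With the hybridization controls as a covariate, 11 calls at P3 were lost (Dut, Mcm5, Orc2, Pold2, Pole, Prim2, Rfc2, Rpa1, Rpa3, Rrm2 and Tipin) and 14 at P6 (Dut, Fen1, Mcm5, Orc2, Pola2, Pold2, Prim1, Prim2, Rfc2, Rpa1, Rpa2, Rpa3, Tipin and Tyms). In bulk RNA, fewer cells that transcribe these genes and less of their RNA per cell cannot be told apart.

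**Figure D1:**
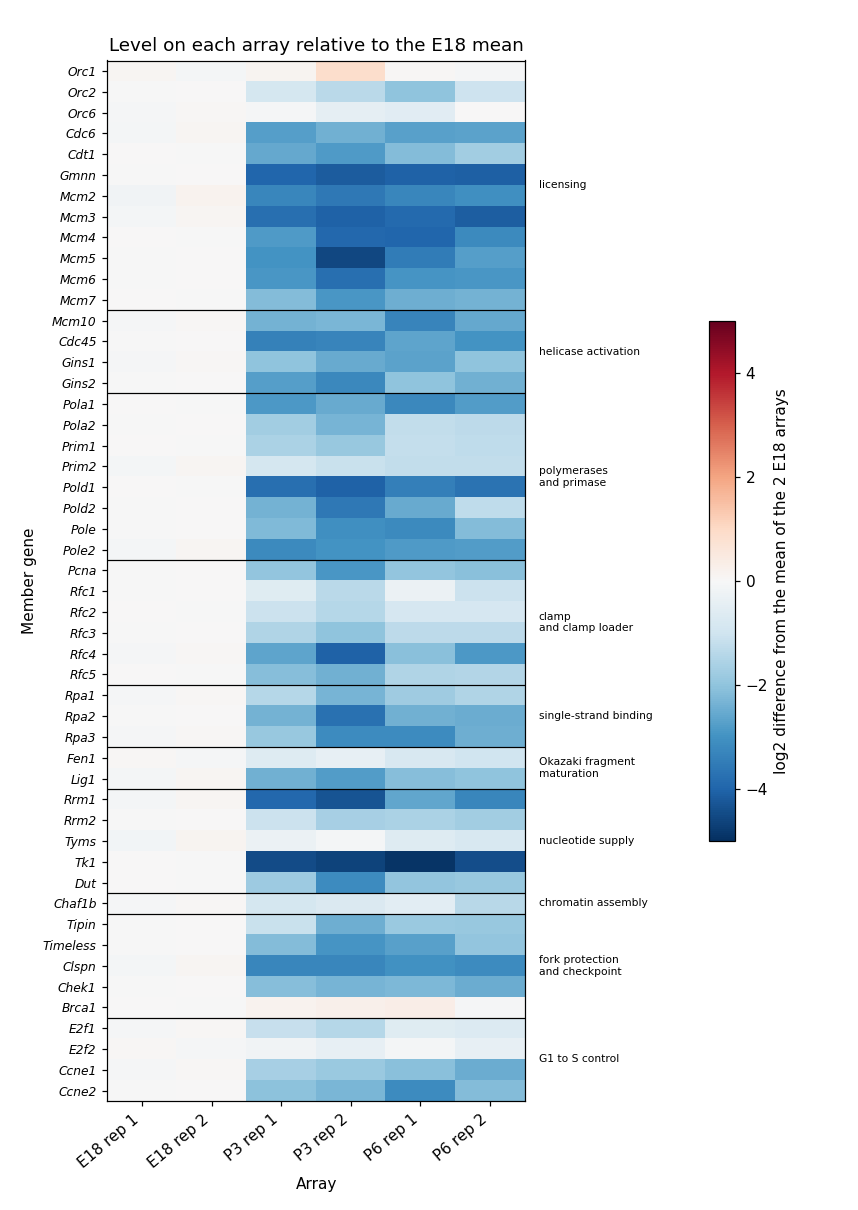
Log2 level of each of the 50 measured members on each of the 6 arrays, minus the member's E18 mean, in colour, with members grouped by role. The 4 postnatal columns are blue, below E18, for most members, and Orc1, Orc6, Brca1, E2f2 and Tyms show little contrast.

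The promoters of these genes share letters known as E2F sites more often than promoters at large. RefSeq promoter windows (GRCm38.p6, from 250 bases before to 50 after each start) were given for 42 of the 51 listed genes, as 49 windows. The letters TTTCCCGC, TTTCGCGC, TTTGCCGC or TTTGGCGC, read on both strands, lay in 14 of the 49 member windows (28.6%), against 744 of 32851 windows of the whole table (2.26%). The genes with such a match were Cdc6, Cdt1, Clspn, E2f2, Lig1, Mcm3, Mcm5, Mcm6, Mcm7, Orc1, Pola1, Pold1, Pole2 and Rfc3. Among them, E2f2 and Orc1 were called at neither later stage on the probe sets read. Whether the letters go with the fall was not tested. CCAAT, the core of the NF-Y site, lay in 57.1% of member windows and 37.4% of all windows. TTTGAA, the core of the CHR element of mitotic genes, lay in 10.2% of member windows and 17.9% of all windows. A match in these letters is a description of the sequence and not a measured site of binding, and windows of 1 gene can overlap.

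Stretches of 200 bases, from 180 before to 20 after the start, show where the matches sit in 5 members that fell, with the matched E2F letters in capitals. They are Mcm5 (chr8:75109329-75109528, plus strand), Mcm6 (chr1:128359686-128359885, minus strand), Cdc6 (chr11:98907971-98908170, plus strand), Pola1 (chrX:93632136-93632335, minus strand) and Rfc3 (chr5:151651189-151651388, minus strand). Tk1 (chr11:117825995-117826194, minus strand), the member with the largest fall, and Orc6 (chr8:85299452-85299651, plus strand), which did not pass the test, are shown for comparison. Neither has these letters in its window. In Mcm5 a pair of matches on opposite strands overlaps in 1 run, 153 and 149 bases before the start, and Mcm6 has such a pair 110 and 106 bases before its start and another match 47 bases before it.
Mcm5: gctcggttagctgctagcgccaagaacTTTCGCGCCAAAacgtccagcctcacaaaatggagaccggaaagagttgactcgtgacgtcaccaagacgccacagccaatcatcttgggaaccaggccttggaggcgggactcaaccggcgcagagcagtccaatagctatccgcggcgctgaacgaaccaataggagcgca
Mcm6: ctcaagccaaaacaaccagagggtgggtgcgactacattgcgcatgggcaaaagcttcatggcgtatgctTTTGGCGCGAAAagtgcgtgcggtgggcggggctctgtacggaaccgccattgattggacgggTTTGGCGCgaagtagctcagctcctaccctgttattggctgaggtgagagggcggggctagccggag
Cdc6: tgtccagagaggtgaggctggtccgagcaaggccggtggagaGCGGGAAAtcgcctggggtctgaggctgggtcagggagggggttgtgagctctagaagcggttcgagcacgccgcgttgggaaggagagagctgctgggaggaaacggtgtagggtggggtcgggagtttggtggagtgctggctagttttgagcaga
Pola1: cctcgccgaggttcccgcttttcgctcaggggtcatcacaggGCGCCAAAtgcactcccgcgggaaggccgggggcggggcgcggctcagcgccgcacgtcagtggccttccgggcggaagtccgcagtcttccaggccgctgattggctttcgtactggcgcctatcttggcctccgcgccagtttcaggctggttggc
Rfc3: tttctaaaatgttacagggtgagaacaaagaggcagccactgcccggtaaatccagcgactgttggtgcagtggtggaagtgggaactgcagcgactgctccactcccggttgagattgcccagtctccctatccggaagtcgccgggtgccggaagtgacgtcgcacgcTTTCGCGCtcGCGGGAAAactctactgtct
Tk1: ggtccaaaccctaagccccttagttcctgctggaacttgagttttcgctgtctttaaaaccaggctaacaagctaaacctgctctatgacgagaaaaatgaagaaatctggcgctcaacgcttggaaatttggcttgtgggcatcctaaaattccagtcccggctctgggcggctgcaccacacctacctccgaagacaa
Orc6: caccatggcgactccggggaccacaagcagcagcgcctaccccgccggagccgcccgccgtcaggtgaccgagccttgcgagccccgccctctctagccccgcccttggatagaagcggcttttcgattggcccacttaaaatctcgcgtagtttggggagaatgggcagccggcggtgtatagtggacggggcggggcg

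Licensing factors fell strongly, with the exception of part of the origin recognition complex. Of 12 licensing genes 10 fell at P3 and 10 at P6, with medians of -3.02 and -2.81 log2 units. Of all genes, 20.0% fell at P3 and 13.3% at P6. Gmnn, which encodes geminin, the inhibitor of Cdt1, read 10.03 and 10.06 at E18, then 6.08 and 5.89 at P3, and then 6.00 and 5.97 at P6. Every later array lay about 4 log2 units below both E18 arrays, and the replicates were close. Gmnn was 16.7-fold lower at P3 than at E18 (-4.06 ± 0.19, SE; limma adjusted p = 1.32e-05) and 16.7-fold lower at P6. Mcm3, a subunit of the helicase ring, read 9.91 and 10.09 at E18, then 6.23 and 5.98 at P3, and then 6.13 and 5.89 at P6. Its fall was 14.9-fold at P3 (-3.90 ± 0.21; limma adjusted p = 2.24e-05) and 15.9-fold at P6. All 6 subunits of the ring, Mcm2 to Mcm7, fell at both stages, by 5.85-fold (Mcm7) to 14.9-fold (Mcm3) at P3 and by 5.3-fold (Mcm7) to 15.9-fold (Mcm3) at P6. The loading factors Cdc6 and Cdt1 were 6.02-fold and 6.49-fold lower at P3, and Cdc6 lay at or below the lower quartile of both arrays at P3 and at P6, where background limits a fold change. Mcm5 kept its call at P3 without any 1 array, but its change there was -4.55 without P3 replicate 1 and -3.0 without P3 replicate 2. At P6 it was not called without P6 replicate 1 (limma adjusted p = 0.0508).

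The origin recognition complex, which marks origins, was the part of this group that changed least. Orc6 read 9.14 and 9.29 at E18, then 9.15 and 8.76 at P3, and then 8.67 and 9.25 at P6, so the stages overlapped. Its difference was -0.27 ± 0.29 at P3 (limma adjusted p = 0.475) and -0.26 at P6 (limma adjusted p = 0.528). Orc1 read 7.29 and 7.11 at E18, then 7.34 and 8.08 at P3, and then 7.25 and 7.14 at P6, and only P3 replicate 2 stood apart. Its difference was 0.51 ± 0.27 at P3 (limma adjusted p = 0.163), was called higher without P3 replicate 1 (0.88), and was -0.00 at P6. A second probe set of Orc1 was called lower at both later stages, by -0.57 at P3 (limma adjusted p = 0.039) and -0.56 at P6 (limma adjusted p = 0.0499). Orc2 was 2.18-fold lower at P3 (limma adjusted p = 0.0386) and 2.87-fold lower at P6 (limma adjusted p = 0.0149). That call was lost at both stages without either E18 array, at P3 without P3 replicate 2 and at P6 without P6 replicate 1. The other probe sets of Orc2 changed by -1.24 (called) and 0.48 (not called) at P3. At P6 they changed by -1.34 (called) and -0.70 (not called). Averaged over its probe sets, Orc2 was called at P6 but not at P3.

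All 4 genes of helicase activation fell at both stages, with medians of -2.66 at P3 and -2.57 at P6. Among all genes 20.0% fell at P3 and 13.3% at P6. Cdc45, the helicase cofactor, read 10.05 and 10.06 at E18, then 6.68 and 6.75 at P3, and then 7.43 and 7.08 at P6. Both P6 arrays were above both P3 arrays, and all 4 were far below E18. Cdc45 was 10.2-fold lower at P3 (-3.35 ± 0.22; limma adjusted p = 5.63e-05) and 6.98-fold lower at P6. Gins2, a GINS subunit, read 10.04 and 10.05 at E18, then 7.28 and 6.83 at P3, and then 8.03 and 7.63 at P6, with the same order of stages. It was 7.92-fold lower at P3 (limma adjusted p = 0.000205) and 4.63-fold lower at P6. Gins1, another subunit of that complex, changed least of the 4 at P3, with 9.19 and 9.28 at E18, then 7.24 and 6.69 at P3, and then 6.57 and 7.24 at P6. Here the P3 and P6 arrays overlapped, and the fall was 4.81-fold at P3 (-2.27 ± 0.30; limma adjusted p = 0.00138) and 5.02-fold at P6.

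The polymerases and primase fell as well, all 8 at both stages, with medians of -2.66 at P3 and -2.29 at P6. Of all genes, 20.0% fell at P3 and 13.3% at P6. Pold1, the catalytic subunit of polymerase delta, read 10.91 and 10.89 at E18, then 7.15 and 6.87 at P3, and then 7.50 and 7.20 at P6. Its later arrays were more than 3 log2 units below E18, a 14.9-fold fall at P3 (-3.89 ± 0.24; limma adjusted p = 3.95e-05) and an 11.7-fold fall at P6. Pole2, a subunit of polymerase epsilon, read 8.57 and 8.80 at E18, then 5.49 and 5.69 at P3, and then 5.84 and 5.90 at P6. It was 8.56-fold lower at P3 (limma adjusted p = 3.27e-05) and 7.05-fold lower at P6. Prim2, the large primase subunit, fell least of the 8 at P3, with 10.11 and 10.26 at E18, then 9.32 and 9.06 at P3, and then 8.96 and 8.94 at P6. The stages did not overlap, and it was 1.99-fold lower at P3 (-1.0 ± 0.24; limma adjusted p = 0.0176) and 2.35-fold lower at P6. Without either E18 array Prim2 was not called at P3 or P6 (largest limma adjusted p 0.218 and 0.151). Pold2, an accessory subunit of polymerase delta, changed at P6 by -1.27 without P6 replicate 1, with no call, and by -2.51 without P6 replicate 2. The P6 call was also lost without either E18 array. At P3 its change was -3.56 without P3 replicate 1 and -2.35 without P3 replicate 2. Pola2 lost its P6 call without any 1 of the E18 or P6 arrays, and Prim1 lost it without either E18 array.

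**Figure D2:**
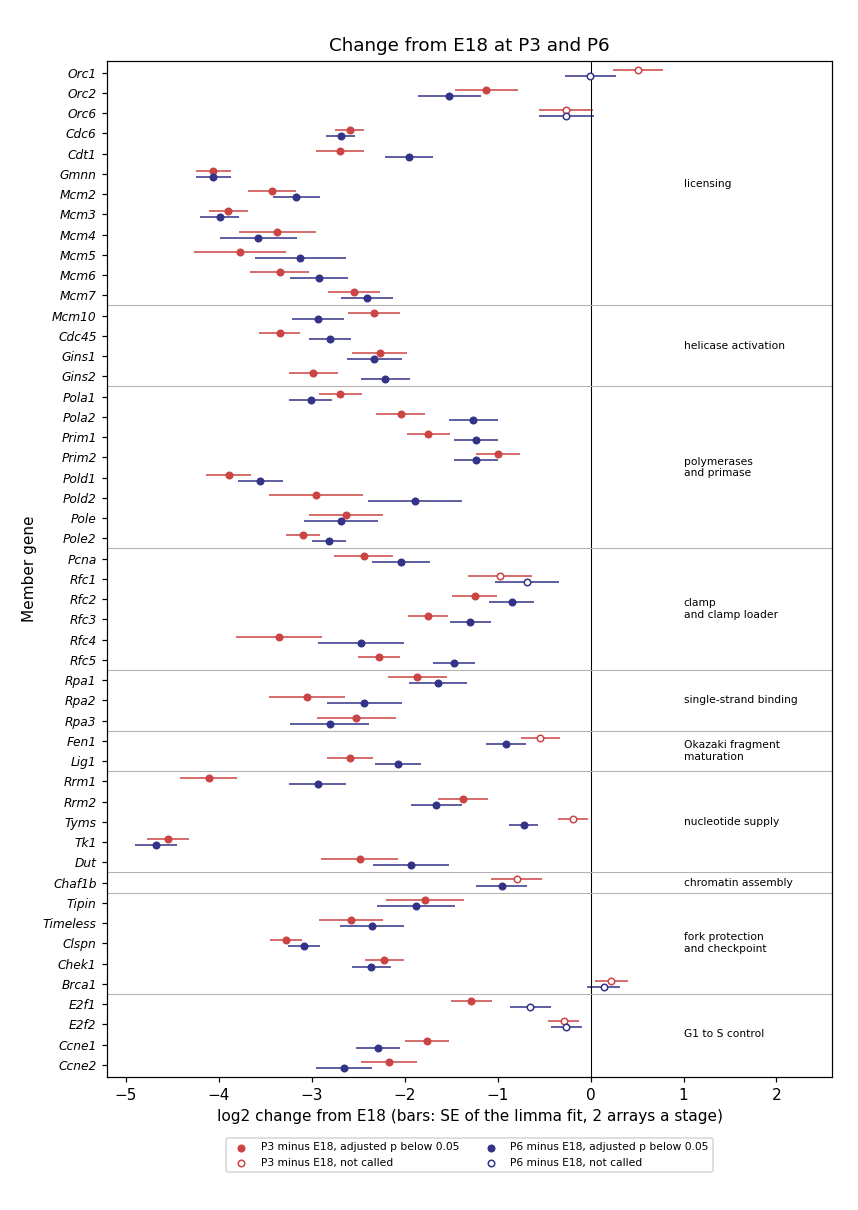
Change of each member from E18 in log2 units, P3 in red and P6 in blue, with bars for the SE of the limma fit and open circles for members that did not pass the test. Nearly all points lie left of 0, from -4.68 for Tk1 to 0.51 for Orc1.

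The sliding clamp and its loader fell less evenly. Pcna, the clamp that holds polymerases on DNA and also serves DNA repair, read 12.92 and 12.95 at E18, then 10.97 and 10.02 at P3, and then 10.96 and 10.84 at P6. The later arrays did not reach the E18 level, and Pcna was 5.43-fold lower at P3 (-2.44 ± 0.31; limma adjusted p = 0.00129) and 4.11-fold lower at P6. Of the 5 genes of replication factor C, which loads the clamp, 4 fell at both stages. The shares over all genes were 20.0% at P3 and 13.3% at P6. Rfc4 read 9.47 and 9.59 at E18, then 6.88 and 5.48 at P3, and then 7.46 and 6.66 at P6, with P3 replicate 2 lowest. It was 10.2-fold lower at P3 (-3.35 ± 0.46; limma adjusted p = 0.00175), with -4.05 without P3 replicate 1 and -2.65 without P3 replicate 2, and 5.56-fold lower at P6, a call lost without P6 replicate 2 (limma adjusted p = 0.0664). The exception was Rfc1, the large subunit, and only on its brightest probe set. Its other probe sets were called lower at both stages, by -1.60 and -1.33 at P3 and by -1.46 and -1.28 at P6. The brightest read 8.98 and 9.02 at E18, then 8.39 and 7.67 at P3, and then 8.71 and 7.93 at P6. All its later arrays were below E18, but the differences of -0.97 ± 0.35 at P3 (limma adjusted p = 0.063) and -0.69 at P6 (limma adjusted p = 0.19) did not pass the test. Without P3 replicate 1 it was called lower at P3. Rfc2 was called lower at both stages, but not without either E18 array, nor at P6 without either P6 array. The other probe sets of Rfc2 were not called, with -0.35 and -0.09 at P3 and -0.13 and -0.05 at P6. Averaged over its probe sets, Rfc2 was not called at P3 or P6.

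All 3 subunits of replication protein A, which coats single-stranded DNA, fell at both stages. Among all genes 20.0% fell at P3 and 13.3% at P6. Rpa2 read 9.96 and 9.99 at E18, then 7.59 and 6.25 at P3, and then 7.57 and 7.50 at P6, and was 8.3-fold lower at P3 (-3.05 ± 0.41; limma adjusted p = 0.00149). Rpa3 read 10.09 and 10.17 at E18, then 8.23 and 7.0 at P3, and then 6.98 and 7.68 at P6, and was 5.73-fold lower at P3 (limma adjusted p = 0.00431). P3 replicate 2 was the lowest of all 6 arrays for Rpa2, and for Rpa3 it was level with P6 replicate 1. Their P3 changes were -3.72 and -3.13 when P3 replicate 1 was left out, and -2.38 and -1.91 when P3 replicate 2 was, all called. Rpa1, the large subunit, fell least, with 12.20 and 12.31 at E18, then 10.83 and 9.95 at P3, and then 10.47 and 10.76 at P6. It was 3.64-fold lower at P3 (limma adjusted p = 0.00444) and 3.12-fold lower at P6, a call lost without E18 replicate 2 or P6 replicate 1.

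Lig1, the ligase that joins Okazaki fragments, read 11.07 and 11.22 at E18, then 8.75 and 8.36 at P3, and then 9.03 and 9.12 at P6. It was 6.01-fold lower at P3 (-2.59 ± 0.25; limma adjusted p = 0.000323) and 4.2-fold lower at P6. Fen1, the flap endonuclease of the same step, read 11.84 and 11.71 at E18, then 11.12 and 11.35 at P3, and then 10.95 and 10.78 at P6. The stages stood apart by little, with -0.54 ± 0.21 at P3 (limma adjusted p = 0.084) and a 1.87-fold fall at P6 (limma adjusted p = 0.019) that was lost without any 1 of the E18 or P6 arrays. The other probe set of Fen1 read 9.41 and 9.54 at E18, then 6.80 and 5.16 at P3, and then 7.04 and 6.83 at P6. There the fall at P3 was -3.49 ± 0.49 (limma adjusted p = 0.00325).

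Nucleotide supply held the largest fall of all members. Tk1, the thymidine kinase of S phase, read 10.66 and 10.64 at E18, then 6.18 and 6.04 at P3, and then 5.75 and 6.20 at P6. All 4 later arrays were more than 4 log2 units below E18, and Tk1 was 23.3-fold lower at P3 (-4.54 ± 0.23; limma adjusted p = 1.71e-05) and 25.6-fold lower at P6 (-4.68; limma adjusted p = 1.58e-05). Rrm1, the large subunit of ribonucleotide reductase, read 11.84 and 12.00 at E18, then 8.01 and 7.63 at P3, and then 9.33 and 8.64 at P6. Its P6 arrays stood above both P3 arrays, with a 17.2-fold fall at P3 (limma adjusted p = 9.37e-05) and a 7.64-fold fall at P6. Rrm2, the small subunit, was 2.59-fold lower at P3 and 3.16-fold lower at P6, and lost its P3 call without either E18 array. Dut, the dUTPase, fell 5.6-fold at P3 and 3.82-fold at P6, the P6 call being lost without either P6 array, and its P3 change was -3.16 without P3 replicate 1 and -1.81 without P3 replicate 2. Tyms, thymidylate synthase, was dim at every stage on its probe sets with this symbol alone. Its chosen one read 5.63 and 5.89 at E18, then 5.48 and 5.67 at P3, and then 5.11 and 4.97 at P6. The difference was -0.19 ± 0.16 at P3 (limma adjusted p = 0.351), and the 1.65-fold fall at P6 (limma adjusted p = 0.0131) was lost without E18 replicate 2 or P6 replicate 2.

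Chaf1b, a subunit of the chromatin assembly factor that places histones behind the fork, read 6.92 and 7.04 at E18, then 6.09 and 6.27 at P3, and then 6.45 and 5.60 at P6. Both later stages lay below E18 without overlap. The difference was -0.80 ± 0.27 at P3 (limma adjusted p = 0.0567) and -0.96 at P6 (limma adjusted p = 0.04), and the P6 call was lost without any 1 of 5 arrays, all but P6 replicate 1.

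Fork protection and checkpoint genes fell in 4 of 5 cases at both stages, where 20.0% of all genes fell at P3 and 13.3% at P6. Clspn, which encodes the checkpoint mediator claspin, read 8.70 and 8.88 at E18, then 5.52 and 5.51 at P3, and then 5.77 and 5.65 at P6. The later arrays were tightly grouped, and Clspn was 9.68-fold lower at P3 (-3.27 ± 0.17; limma adjusted p = 2.04e-05) and 8.45-fold lower at P6. Timeless, a fork protection factor, read 9.67 and 9.73 at E18, then 7.51 and 6.73 at P3, and then 6.99 and 7.71 at P6, and was 5.96-fold lower at P3 (limma adjusted p = 0.0015). Its partner Tipin was 3.44-fold lower at P3 and 3.67-fold lower at P6, and lost both calls without either E18 array and the P6 call also without either P6 array. The P3 change of Tipin was -2.46 without P3 replicate 1 and -1.10 without P3 replicate 2. Chek1, the checkpoint kinase, was 4.66-fold lower at P3 and 5.14-fold lower at P6.

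Brca1, a repair and fork protection gene, was read through a probe set that did not fall, while its others did. Its brightest probe set read 6.04 and 5.99 at E18, then 6.20 and 6.27 at P3, and then 6.35 and 5.95 at P6. The stages overlapped, with 0.22 ± 0.18 at P3 (limma adjusted p = 0.339) and 0.14 at P6 (limma adjusted p = 0.585). Another probe set read 8.84 and 8.98 at E18, then 4.85 and 4.66 at P3, and then 4.64 and 4.65 at P6, a change of -4.15 ± 0.17 at P3 (limma adjusted p = 3.47e-05). The remaining probe sets of Brca1 changed by -1.62 and -1.66 log2 units at P3, both called.

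Among the genes that control entry into S phase, the E-type cyclins fell. Ccne2 read 7.50 and 7.57 at E18, then 5.47 and 5.26 at P3, and then 4.39 and 5.38 at P6, and was 4.5-fold lower at P3 (-2.17 ± 0.30; limma adjusted p = 0.00176) and 6.28-fold lower at P6. Ccne1 read 9.32 and 9.41 at E18, then 7.70 and 7.52 at P3, and then 7.28 and 6.87 at P6, and was 3.38-fold lower at P3 (limma adjusted p = 0.00154) and 4.88-fold lower at P6. Its other probe set was not called at P3 (-0.52; limma adjusted p = 0.15) or P6 (-0.81; limma adjusted p = 0.0643). On the probe sets read for both cyclins no later array reached E18. E2f1, a transcription factor that activates S phase genes, read 8.67 and 8.80 at E18, then 7.58 and 7.31 at P3, and then 8.11 and 8.05 at P6. It was the member called at P3 (2.44-fold lower; limma adjusted p = 0.00459, lost without either E18 array) and not at P6 (-0.65; limma adjusted p = 0.07). The other probe sets of E2f1 were not called, with -0.57 and 0.14 at P3 and -0.34 and 0.08 at P6. E2f2, a related factor, read 5.59 and 5.46 at E18, then 5.36 and 5.10 at P3, and then 5.41 and 5.11 at P6 on a dim probe set, with -0.29 ± 0.17 at P3 (limma adjusted p = 0.19) and -0.26 at P6 (limma adjusted p = 0.28). Its other probe set was called lower at P3, by -1.22 (limma adjusted p = 0.0112).

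Of the 8 members without a call at P3, 6 had another probe set that was called lower. The 50 members had 112 probe sets with their symbol alone, and 38 members had more than 1. Tested separately, 77 of the 112 were called lower at P3, where 17.1% of all probe sets with 1 symbol were, and 0 were called higher. At P6 the count was 78, where 12.4% of all were, and 0 were higher. Counted this way, an alternative added after the data were seen, 48 of 50 members had at least 1 probe set called lower at P3, the exceptions being Chaf1b and Orc6, and 47 at P6, the exceptions being Chaf1b, E2f1 and Orc6. A gene with more probe sets has more chances of a call under this count. For Mcm3, Mcm5 and Rrm2, read through probe sets of the class x_at, further probe sets were called lower at P3. The changes were -3.23 for 1 of the other 2 of Mcm5, -1.82 and -2.13 for Rrm2 and -2.58 to -4.78 for 3 of the other 4 of Mcm3. The probe set of Mcm3 with -4.78 is of the class s_at. All probe sets of a member moved the same way in 21 of the 38 members at P3 and in 25 at P6.

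**Figure D3:**
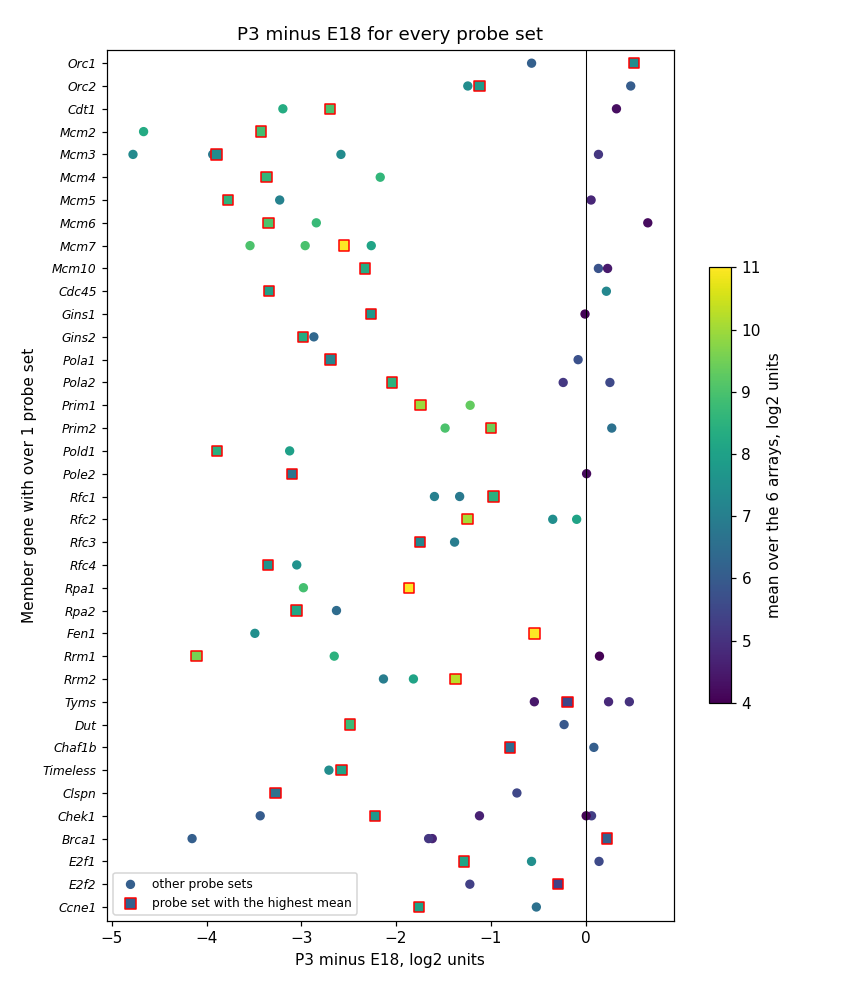
P3 minus E18 in log2 units for every probe set of the 38 members with more than 1, with red squares for the probe set of highest mean and colour for the mean level. For Brca1, Fen1, Rfc1 and E2f2 the chosen probe set was not called and its other probe sets lie lower.

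Between P3 and P6 no call was made, for members or for any other gene, which does not show that the stages were alike. The fit called 0 members and 0 of 18193 genes (0%) for P6 against P3, and 8 members and 3224 genes had an unadjusted p below 0.05. The median difference of P6 minus P3 was 0.17 log2 units over the members and 0.07 over all genes, with 28 members above 0 and 22 below. Both P6 arrays lay above both P3 arrays in 15 members, a pattern that 25.2% of all genes showed, and below them in 6, a pattern that 16.7% showed. The largest difference was that of Rrm1, with 9.33 and 8.64 at P6 against 8.01 and 7.63 at P3 (1.17 ± 0.31; limma adjusted p = 0.161). Rfc5, a clamp loader subunit, read 8.29 and 8.33 at P6 against 7.63 and 7.37 at P3 (0.80 ± 0.23; limma adjusted p = 0.171). Tyms lay at 5.11 and 4.97 at P6 against 5.48 and 5.67 at P3 (-0.53 ± 0.16; limma adjusted p = 0.179). The lowest difference was that of Mcm10, which helps start the helicase, with 6.76 and 7.46 at P6 against 7.66 and 7.77 at P3 (-0.60 ± 0.28; limma adjusted p = 0.316).

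This comparison rested on the P3 arrays. P3 replicate 2 was lower than P3 replicate 1 in 40 of the 50 members, and in 59.4% of all genes. Without P3 replicate 1 the median over the members was 0.40 and 15 members were called higher at P6, where 17.4% of all genes were: Dut, E2f1, Gins2, Lig1, Mcm5, Mcm6, Pcna, Pola2, Prim1, Rfc2, Rfc3, Rfc4, Rfc5, Rpa2 and Rrm1. Orc1 was called lower in that fit, where 5.19% of all genes were. Without P3 replicate 2 the median was -0.10 and 0 members were called. The share of members called higher without P3 replicate 1 is thus 15 of 50 on a fit in which P3 is 1 array, assumed to vary like the other stages.

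**Figure D4:**
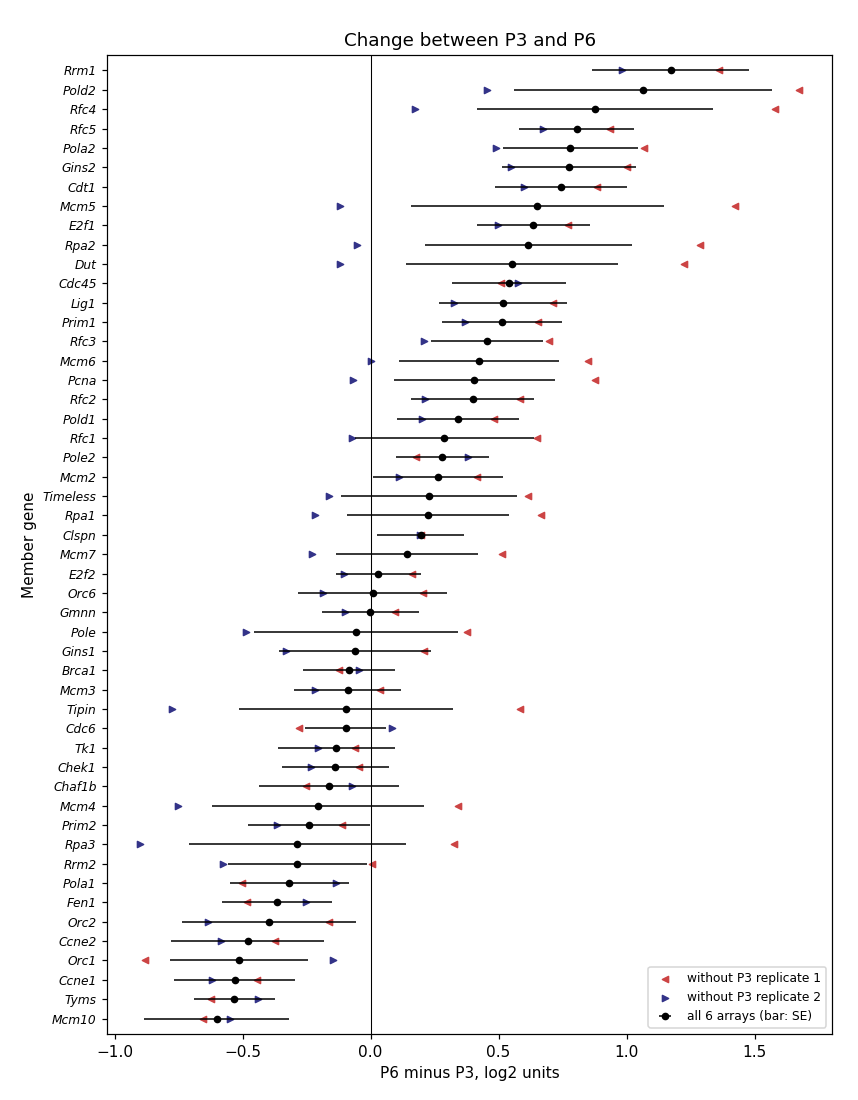
P6 minus P3 difference of each member in log2 units, with the SE of the limma fit, and the same difference without P3 replicate 1 and without P3 replicate 2. The differences run from -0.60 for Mcm10 to 1.17 for Rrm1, and leaving out P3 replicate 1 moves most members to the right.

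The change was concentrated in the first interval. The test of the difference between intervals, the change from P3 to P6 minus the change from E18 to P3, was positive and called in 34 members, where 12.3% of all genes were, and negative and called in 0, where 4.90% were. Its median over the members was 2.54 log2 units and its range -1.03 (Orc1) to 5.28 (Rrm1). P3 enters this test through both intervals, so an array that reads low at P3 raises it. A test for any difference among the 3 stages called 44 members, where 30.9% of all genes were called. With the hybridization controls as a covariate 15 members were called for the difference between intervals and 24 for any difference, and without P6 replicate 2 the difference between intervals was called in 22.

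Other genes of replication, listed from textbook knowledge and not members, moved the same way. The list was chosen with earlier results of these data known, so it is not an independent check. Of 44 listed, 41 were measured. Against E18, 35 fell at P3, where 20.0% of all genes fell, and 29 at P6, where 13.3% did. At both stages 0 rose, where 15.4% of all genes rose at P3 and 11.6% at P6. Their median change was -1.77 at P3 and -1.53 at P6. Rad51ap1, which aids repair of replication forks by recombination, had the largest fall, 29.0-fold at P3 (limma adjusted p = 4.3e-05). Dbf4, the activator of the Cdc7 kinase that fires origins, was 17.4-fold lower at P3 (limma adjusted p = 0.000166). Its kinase partner Cdc7 was 3-fold lower (limma adjusted p = 0.0173). The origin genes Orc3 and Orc5 differed by 0.07 and -0.43 at P3 and were not called, and Orc4 was called lower (-1.22; limma adjusted p = 0.0229). Dnmt1, which copies DNA methylation onto new strands, differed by 0.32 (limma adjusted p = 0.364), and the histone chaperone gene Supt16 by 0.15.

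Markers of dividing cells, progenitors and glia were also high at E18, and their part in the fall of the replication genes was not tested. Of 17 mitosis genes 16 fell at P3, where 20.0% of all genes fell, and 16 at P6, where 13.3% did. Their median at P3 was -5.62, and the exception was Tpx2, whose probe set read only 7.35 and 7.16 at E18. Their summed level, the log2 of the sum of their linear values, was 15.87 and 15.89 at E18, then 10.42 and 10.63 at P3, and then 10.47 and 10.52 at P6. For the replication members the summed level was 16.14 and 16.19 at E18, then 14.23 and 13.75 at P3, and then 14.13 and 14.19 at P6. Of 11 markers of radial glia and intermediate progenitors 9 fell at both stages, among them Sox2 and Eomes, and Pax6 and Nes did not. Pax6 was read through a dim probe set, with 5.92 and 5.79 at E18, below the median of 6.41 of both E18 arrays. The summed level of the 11 markers was 15.24 on both arrays at E18, then 10.63 and 10.98 at P3, and then 10.96 and 11.13 at P6. Mki67, which defines cycling cells, read 12.80 and 13.01 at E18, then 6.61 and 6.96 at P3, and then 7.14 and 6.86 at P6.

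Glial markers moved in part with the same contrast. Beside the counts that follow, 20.0% of all genes fell and 15.4% rose at P3, and 13.3% fell and 11.6% rose at P6. Of 7 astrocyte markers 4 fell at both stages, with summed levels of 14.15 and 14.12 at E18, then 10.50 and 10.51 at P3, and then 11.14 and 12.45 at P6. Of 6 microglia markers 4 fell at P3 and 0 at P6 (2 at an unadjusted p below 0.05), with summed levels of 12.64 on both arrays at E18, then 9.83 and 11.02 at P3, and then 10.55 and 12.35 at P6. Of 5 markers of oligodendrocyte precursors 3 fell at P3 and 1 at P6, with summed levels of 10.20 and 10.21 at E18, then 8.75 and 9.54 at P3, and then 9.47 and 9.57 at P6. Endothelial markers fell in 1 of 5 cases at P3 and 2 at P6, with summed levels of 8.97 to 9.57 over all arrays. Interneuron markers fell in 2 and rose in 1 of 6 cases at both stages, with summed levels of 10.41 to 10.93. That sum is weighted to Npy, the brightest of the 6 on every array and the one that rose. The mean of Dlx1 fell from 8.77 at E18 to 5.89 at P3, and that of Dlx2 from 6.68 to 4.60. The 2 measured red blood cell genes were not called. Of 8 general neuron genes 6 rose at both stages, with summed levels of 13.55 and 13.56 at E18, then 15.07 and 14.90 at P3, and then 15.02 and 15.01 at P6. The 8 corticothalamic genes all rose at both stages, with summed levels of 11.66 and 11.73 at E18, then 13.91 and 13.32 at P3, and then 14.10 and 13.90 at P6.

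**Figure D5:**
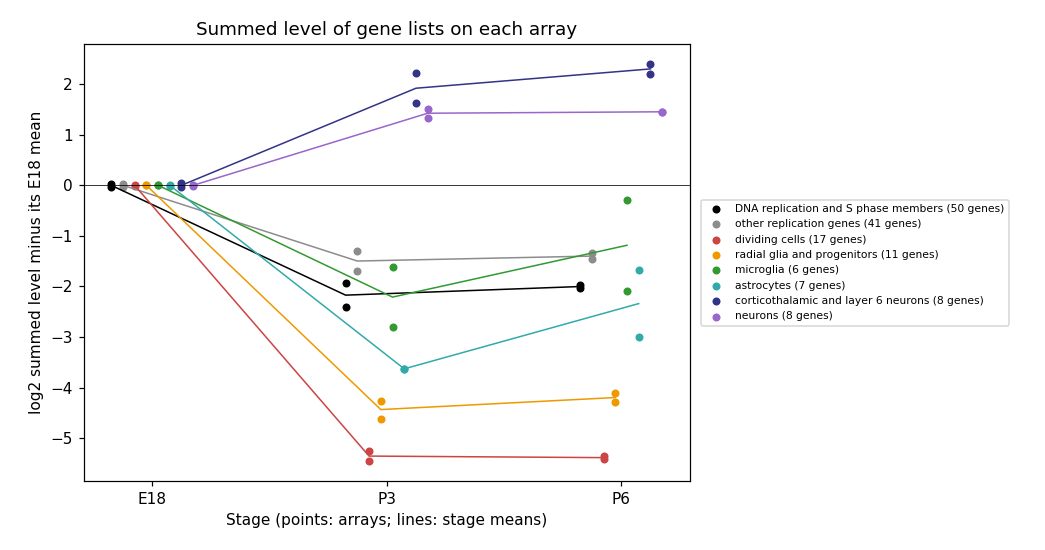
Log2 summed level of gene lists on each array, minus the E18 mean of that list, with points for arrays and lines through stage means. The replication members fall by about 2 log2 units, the mitosis and progenitor lists by more than 4, and the neuron lists rise.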

How the data were processed

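Per the labels' protocols, RNA of sorted neurons was extracted, amplified, biotinylated and hybridized to Affymetrix arrays. The authors deposited log2 values for each probe set, made with RMA, per the submitters' processing notes. Its version, and whether the 6 arrays were run together, are not given in the sources used here. Array signals carry no read depth, and their number, 2 a stage, limits the precision.

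Of 45101 probe sets, 34945 with 1 symbol in the platform annotation were used. 932 with several symbols, 9160 with none and 64 controls were left out. Each of 18193 genes was read through its brightest probe set (mean of 6 arrays), with no filter on dim genes, so that every member with a probe set was tested. Limma 3.58.1 in R 4.3.3 fitted the 3 stages on 6 arrays (3 residual degrees of freedom, empirical Bayes with an intensity trend). Tests were 2-sided and adjusted over all genes within each contrast. The scripts were tested on simulated data.

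The members and lists were chosen with earlier results of these data known. Array values were given, by rule, for the 2 largest and the smallest P3 change in each role, for members without a call at P3 or higher than E18, and for the largest, the lowest and the 3 smallest-p differences between P6 and P3. Values of further members were added where 1 array ended a call or moved a fold. Alternatives were filters, normalization, probe set choice, the fit's spread, a replicate block, left-out arrays, averaged E18 arrays and 2 quality covariates.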

Additional observations from a re-analysis of the deposited data

How the results depend on the processing

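No member called against E18 turned to the other direction in any alternative. Of the 42 members called lower at P3 against E18, 30 kept the call under all of the 18 alternatives that tested them, and of the 44 called at P6, 28 did. Counts ranged from 32 to 44 at P3 and from 30 to 46 at P6, lowest with the level of the hybridization controls as a covariate. Over all genes the counts were less stable, from 2308 (that covariate) to 9426 (without P3 replicate 1) around 6434 at P3, and from 2312 (without E18 replicate 2) to 7088 (array weights) around 4538 at P6. With the E18 arrays averaged as 1 sample, 36 members were called at P3 and 34 at P6. Leaving out each array in turn gave 36 to 44 members at P3, 33 to 44 at P6, 0 to 16 for P6 minus P3 (16 without P3 replicate 1), 22 to 39 for the difference between intervals (22 without P6 replicate 2) and 34 to 45 for any difference among stages. With those controls as a covariate the difference between intervals was called in 15 members instead of 34, and any difference among stages in 24 instead of 44. Over all genes these tests called 997 to 7520 (3127 as reported) and 2032 to 9982 (5629 as reported), and P6 minus P3 called 4102 without P3 replicate 1 and 0 in the other alternatives. Averaged over its probe sets, Brca1 turned to -1.80 at P3 (limma adjusted p = 0.000132) and -1.80 at P6 (limma adjusted p = 0.000123), since its other probe sets fell. At P3, 43.5% of the calls over all genes were higher, 37.1% after centring each array, and after quantile normalization 3004 genes were higher and 3003 lower. The members' median at P3 was -2.54 with centring and -2.20 with quantile normalization. With the replicate number as a block, 43 members were called at P3, 43 at P6, 0 for P6 minus P3, 34 for the difference between intervals and 43 for any difference. Same-numbered arrays did not deviate together (correlations across genes of -0.19, 0.04 and -0.18), so the numbers are not taken as pairs. The fit of only the stages compared was not run for the tests that need all 3 stages. Dim values at P3 and P6 understate a fold change.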
